A study of Homo sapiens with 12 samples.

Results

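The 91 genes described here belong to 11 families of developmental transcription factors outside the HOX clusters: FOX (33 genes), SOX (13), TBX (7), DLX (6), PAX (6), GATA (5), LHX (5), the sine oculis homeobox family that includes SIX2 (5), IRX (4), PBX (4) and MEIS (3). They were selected by gene name and by abundance, as the names of these families with at least 100 raw counts summed over the 12 libraries. Of 125 gene names that matched, 9 had no count and 25 had 1 to 99 counts, and the 91 that remained stood among 59385 gene names in all. FOXA2, with 101 counts, and SOX15, with 152, lay just inside this limit, and FOXB2, with 92, and FOXH1, with 78, just outside it. All 91 passed the filter on low counts and are among the 18166 genes tested.

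The cells were HEK293T, a human embryonic kidney line that carries the SV40 large T antigen. Both lines compared carried a doxycycline (Dox)-inducible shRNA vector and were induced with Dox for 36 h, one with a non-silencing control shRNA (shCtrl) and the other with an shRNA against PRRC2B (shPRRC2B), an RNA-binding protein. Each line was grown from 1 clone after puromycin selection, so an effect of the shRNA and a difference between clones cannot be told apart. Total RNA and polysome-associated RNA, the pooled heavy fractions of a sucrose gradient, were sequenced from each line in 3 biological replicates per line and fraction, which gave 4 groups and 12 libraries. The comparison of the lines asks how mRNA abundance and translation differ when PRRC2B is depleted. Translation efficiency (TE) is the ratio of polysome-associated to total RNA, and a TE change is the ratio of that ratio in shPRRC2B to that in shCtrl cells.

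Transcription factors of these families bind short DNA motifs through a conserved domain: the forkhead domain in FOX proteins, the HMG box in SOX, the T-box in TBX, zinc fingers in GATA, the paired domain in PAX, and the homeodomain in SIX2 and its paralogs and in LHX, IRX, DLX, MEIS and PBX proteins. They are known for setting the identity of tissues and body regions in the embryo, and many are silent outside the lineage they specify. Among FOX genes, several of the FOXJ, FOXK, FOXM, FOXN, FOXO and FOXP subgroups are instead expressed in many cell types, where they act in the cell cycle, metabolism and the response to growth factors. In the kidney, PAX2, SIX2, GATA3 and LHX1 are known regulators of the early nephric lineage.

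Library totals lay between 9855734 and 20837542 counts. PRRC2B itself lay between 258 and 313 CPM (counts scaled to 1e6 per library after TMM) in shCtrl total RNA and between 97.9 and 103 CPM in shPRRC2B total RNA, a log2 change of -1.49 (SE 0.17, adjusted p = 4.25e-06, edgeR's quasi-likelihood test), with 12.9 to 21.1 and 5.14 to 9.03 CPM in polysomes. Of 9 markers of mature kidney tubule and podocyte, 3 were at 0 in all libraries, among them UMOD and AQP2, and the 9 together summed to at most 1.70 CPM, while 5 of 7 regulators of the nephric lineage lay above 1 CPM in total RNA of both lines. Marker sums of other cell types differed between the lines. In total RNA, 6 neuronal markers summed to between 457.6 and 529.7 CPM in shCtrl and between 199.5 and 207.7 CPM in shPRRC2B cells, 5 epithelial markers to between 134.9 and 144.6 and between 77.2 and 79.4 CPM, and 5 mesenchymal markers to between 143.7 and 147.7 and between 257.9 and 280.2 CPM. Most of the neuronal sum came from NEFL and NEFM. Their means were 175.3 and 285.5 CPM in shCtrl and 87.5 and 96.5 CPM in shPRRC2B cells. INA and DCX, the latter near 0, also had lower means in shPRRC2B cells. NEFH and TUBB3, under 1 CPM in both lines, had higher ones. Single markers of the other lists went both ways too. KRT8 stood at means of 90.1 and 20.6 CPM in the 2 lines and COL3A1 at 5.99 and 1.95, while KRT18 was higher in shPRRC2B cells at 47.9 CPM, VIM stood at 122 and 237.1 and COL1A1 at 17.1 and 31.8 CPM. The part of these differences in the results below was not tested. In bulk RNA, fewer cells that express a gene and less RNA per cell cannot be told apart. The p-values measure the spread between 3 cultures of 1 clone per line.

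To compare levels between genes, CPM in shCtrl total RNA were divided by the length of the canonical transcript in kb. FOXC1, a forkhead factor of mesoderm and the anterior eye, was the most abundant member at 75.4 ± 2.76 CPM per kb (SD, n = 3). SOX4 followed with 48.5 ± 7.94 and TBX1, a T-box gene of the pharyngeal arches, with 36.3 ± 3.73 CPM per kb. SOX12, a paralog of SOX4, stood at 33.8 ± 3.37 CPM per kb, within the spread of TBX1.

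In other families the highest member per kb was DLX2 (25.7 ± 1.94), MEIS3 (13.7 ± 1.14), GATA6 (12.7 ± 1.19), PAX6 (8.84 ± 0.59), IRX3 (6.67 ± 0.98) and LHX4 (2.87 ± 0.18 CPM per kb, each SD over 3 libraries). LHX4 and LHX8 (2.76 ± 0.35 CPM per kb) did not differ beyond their spread. At the other end of the scale, PAX1 and FOXA2 stood at 0.0071 and 0.0048 CPM per kb, from 3 and 1 counts over the 3 shCtrl total libraries. Within the FOX family alone the levels thus ran from FOXC1, the highest of all members, to FOXA2, the lowest.

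The first comparison asked how the members were distributed between polysomes and total RNA in shCtrl cells. Of the 91 members, 57 (62.6%) were lower in polysomes than in total RNA and 11 (12.1%) were higher, with edgeR's quasi-likelihood test, where a call needed a log2 difference beyond 0.5 besides an adjusted p below 0.05. Among all 18166 genes tested, 39.8% were lower and 32.5% higher. The median log2 polysome-to-total ratio was -1.10 over the members and -0.22 over all genes tested. These ratios are relative to the other mRNAs, since TMM sets the scale between fractions. When libraries were scaled by total counts, the median of all genes moved to -1.22 and that of the members to -2.08, with 3 members higher and 74 lower. Without the first shCtrl polysome library, 7 members were higher.

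**Figure D1:**
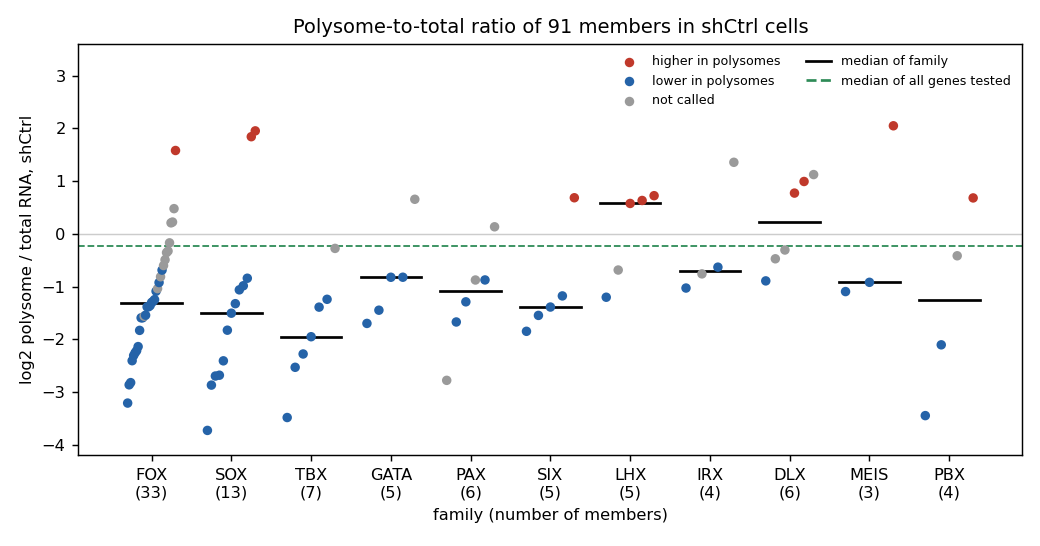
Each point is 1 of the 91 members, grouped by family on the horizontal axis, with the log2 ratio of polysome to total RNA in shCtrl cells on the vertical axis. Colours mark the calls, black lines the median of each family and the dashed line the median of all genes tested. The TBX family has the lowest median (-1.95) and the LHX family the highest (0.58).

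The calls of the families were as follows. All 7 TBX genes had ratios under 0, of which 6 were called lower. In the SOX family 11 of 13 were lower, 4 of 5 each in GATA and among SIX2 and its paralogs, and in FOX 21 of 33. The LHX family, whose members carry LIM domains beside the homeodomain, had 3 of 5 higher (LHX2, LHX6 and LHX8) and 1 lower (LHX4), and without the first shCtrl polysome library 1 LHX gene was higher. In DLX, 2 genes were higher and 1 lower.

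SOX9, which directs cartilage and testis formation, had the lowest ratio among the called members. Its total RNA stood at 19.4, 19.2 and 17.8 CPM and its polysome RNA at 1.69, 2.17 and 0.333 CPM, a log2 ratio of -3.73 (SE 0.35, adjusted p = 2.62e-08, edgeR's quasi-likelihood test). TBX20, a cardiac T-box gene, stood at 3.13, 4.31 and 3.32 CPM in total RNA and 0, 0.543 and 0.444 CPM in polysomes (log2 -3.48, SE 0.52, adjusted p = 9.13e-06). For both genes every polysome library lay below every total library. SOX4, a SOXC gene of progenitor cells, held 231, 277 and 200 CPM in total RNA and 41.4, 28.3 and 27 CPM in polysomes (log2 -2.87, SE 0.18, adjusted p = 1.41e-10), and the fractions did not overlap either. FOXN4, a forkhead gene of retinal and spinal interneurons, had a log2 ratio of -3.21 (SE 0.34, adjusted p = 1.15e-07).

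PBX2, a partner of HOX proteins, had a log2 ratio of -3.45 (SE 1.14, adjusted p = 0.011, edgeR's quasi-likelihood test). Its 3 shCtrl total libraries held 8, 134 and 25 counts, so that a single library carried most of them. Without that library, replicate 2, the log2 ratio was -2.20 and the adjusted p = 0.114. Reads of PBX2 can also match a pseudogene copy, and how such reads bear on these counts was not tested.

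At the other extreme, MEIS3, a TALE homeodomain partner of HOX and PBX proteins, was enriched in polysomes. It stood at 30.2, 26.8 and 25.8 CPM in total RNA and 129, 109 and 105 CPM in polysomes, a log2 ratio of 2.05 (SE 0.14, adjusted p = 4.86e-10, edgeR's quasi-likelihood test), while MEIS1 and MEIS2 were both lower in polysomes (log2 -1.10 and -0.92). SOX18, an endothelial SOX gene, stood at 3.43, 2.99 and 2.21 CPM in total RNA and 15.5, 6.94 and 11.4 CPM in polysomes (log2 1.95, SE 0.25, adjusted p = 1.83e-06). Thus within the MEIS family the genes lay on both sides, and within SOX the 2 higher genes, SOX18 and SOX3, stood against 11 lower ones. SOX3, an X-linked gene of neural progenitors, had a log2 ratio of 1.84 (SE 0.28, adjusted p = 1.39e-05) and FOXA3, an endodermal forkhead gene, of 1.58 (SE 0.30, adjusted p = 0.000126), which was 0.58 and no longer called under scaling by total counts (adjusted p = 0.0839) or TMM within each fraction (adjusted p = 0.0852). DLX4 had a log2 ratio of 0.99 (SE 0.17, adjusted p = 4.1e-05), which was -0.01 under scaling by total counts. GATA4, a regulator of heart, gonad and endoderm, was lower in polysomes, with 21.8, 25.3 and 22.7 CPM in total RNA against 14.1, 13.5 and 11.9 CPM (log2 -0.82, SE 0.14, adjusted p = 4.38e-05), a value of -0.42 and below the size limit with the trend on transcript length removed.

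The polysome-to-total ratio went with the length of the canonical transcript, as it did among all protein-coding genes. Of 23 members shorter than 2500 nt, 10 were higher and 7 lower in polysomes, and without the first shCtrl polysome library 6 were higher. Of 38 members between 2500 and 4000 nt, 1 was higher and 25 were lower, and of 30 members of 4000 nt or more, 25 were lower and none higher. The shares that were lower (30.4%, 65.8% and 83.3%) stood above those of protein-coding genes tested in the same classes (10.7%, 40.5% and 70.7%), and the shares that were higher (43.5%, 2.63% and 0%) below theirs (65.3%, 22.4% and 9.03%). The members are also rich in GC, with a median of 64.2% in the coding sequence against 52.7% over the 13609 protein-coding genes tested. With the trend on GC content removed, the median log2 polysome-to-total ratio was -0.95 over the members and -0.05 over all genes tested. Under a correction of each library for length, 42 members were lower and 8 higher, against 30.3% and 31.2% of all genes tested.

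The second comparison was total RNA of shPRRC2B against shCtrl cells. Of the 91 members, 20 (22%) were higher in shPRRC2B cells and 14 (15.4%) lower, against 14.9% and 14.1% of all genes tested by the same rule. Without shPRRC2B total replicate 1 or 2, 9 or 8 members were lower. The median log2 change was 0.06 over the members and 0.04 over all genes tested. In PAX 3 of 6 genes rose, PAX1 and PAX7 among them, and none fell. In the GATA family 4 of 5 rose (GATA2, GATA3, GATA4 and GATA5) and none fell, but GATA3 alone held its call with each single library left out. Leaving out replicate 1 or 3 of shCtrl total RNA, or replicate 2 or 3 of shPRRC2B polysomes, left 1 GATA call. Leaving out replicate 1 of shPRRC2B polysomes or any 1 library of shPRRC2B total RNA left 2. GATA2 and GATA5 lost their calls without replicate 2 of shCtrl total RNA as well. Under scaling by total counts GATA2, GATA4 and GATA5 also lost their calls. In FOX 6 rose and 9 fell, with 5 falls without shPRRC2B total replicate 1 or 2.

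**Figure D2:**
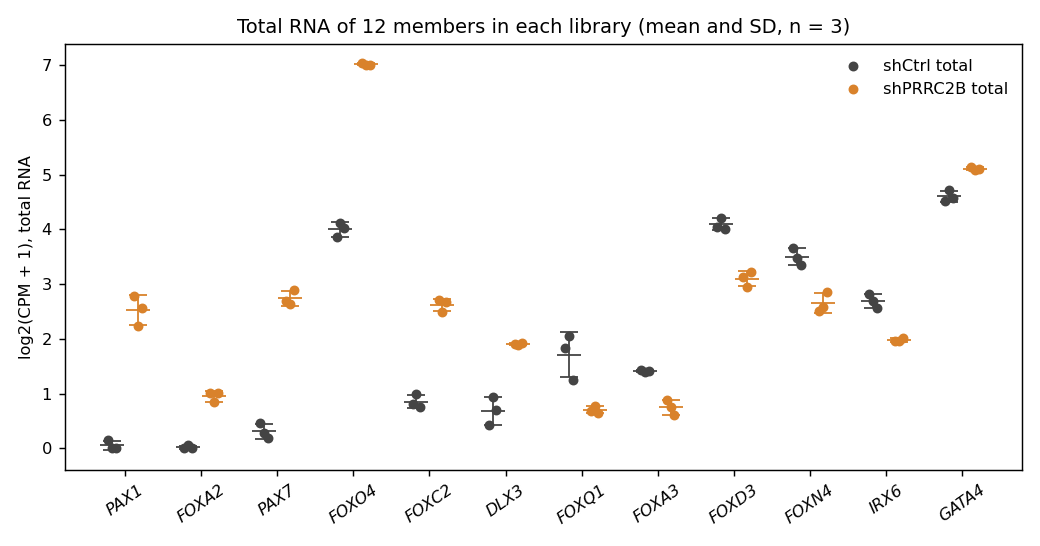
Total RNA of 12 members in each library, as log2(CPM + 1) on the vertical axis, with 3 shCtrl (grey) and 3 shPRRC2B (orange) libraries per gene and bars for the mean and SD. PAX1, FOXA2 and PAX7 lie near 0 in shCtrl and above it in shPRRC2B cells, FOXO4 shows the widest gap at a high level, and the 2 lines do not overlap for any of the 12 genes.

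Genes near silence in shCtrl cells showed the widest gaps. PAX1, a paired-box gene of the sclerotome and thymus (chr20:21705659-21718481, GRCh38), held 3, 0 and 0 counts in shCtrl total RNA and 126, 104 and 112 counts in shPRRC2B total RNA. The ratio of the summed counts, scaled for depth, was 107.8, with a 95% counting interval of 36.6 to 525.5. In polysomes PAX1 held 0 counts in shCtrl and 72 in shPRRC2B cells, at least 21.3-fold higher with 3 counts over the group as the floor. The lines did not overlap in either fraction.

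FOXA2, a pioneer factor of endoderm and floor plate, lies 880 kb from PAX1. It held 0, 1 and 0 counts in shCtrl total RNA and 22, 22 and 23 counts in shPRRC2B total RNA, a scaled ratio of 63.4 (95% counting interval 11 to 2540), and in polysomes it was at least 9.75-fold higher. PAX1 and FOXA2 were thus detected in one line and close to absent in the other. Counting intervals and floors cover counting error only.

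Of 9 genes tested with any part within 1000 kb of PAX1, 4 were higher in shPRRC2B cells and 1 lower. Among all genes tested, 14.9% were higher and 14.1% lower. The 4 include FOXA2, a member selected through its shPRRC2B counts. NKX2-4 and NKX2-2, homeobox genes on the same side of PAX1, rose by log2 1.44 (SE 0.18) and 1.06 (SE 0.30), and RALGAPA2 by 0.60 (SE 0.13). XRN2, a broadly expressed exonuclease gene that lies between RALGAPA2 and NKX2-4, had a log2 change of 0.38 (SE 0.12) and KIZ of -0.23 (SE 0.15), neither of them called. The lower gene was RPL41P1, a ribosomal protein pseudogene (log2 -1.38, SE 0.30). The changes were therefore uneven over the region.

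**Figure D3:**
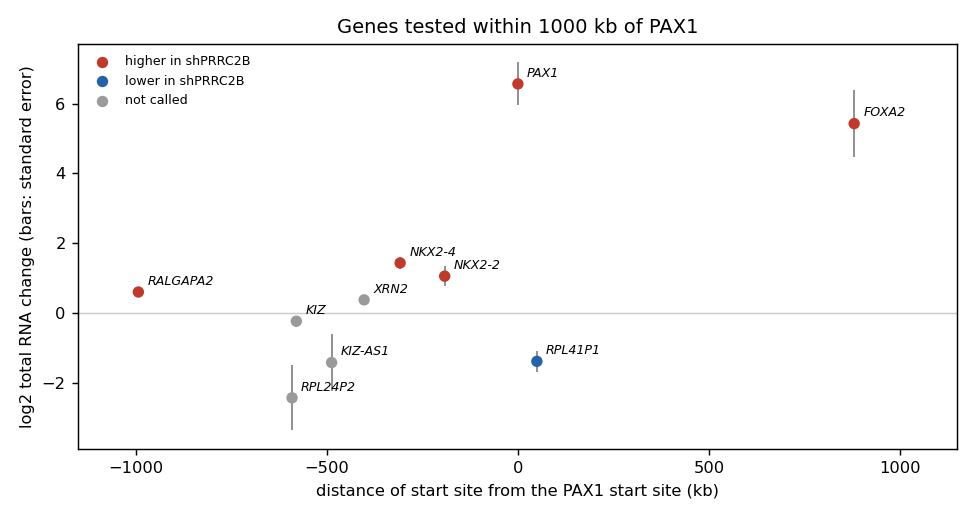
Genes tested near PAX1, with the distance of each start site from that of PAX1 in kb on the horizontal axis and the log2 change of total RNA between the lines on the vertical axis, with bars for the standard error. The fitted values of PAX1 and FOXA2 rest on 3 and 1 counts in shCtrl cells, and XRN2 and KIZ, which were not called, lie between called genes.

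PAX7, a paired-box gene of muscle stem cells (chr1:18630846-18748866), stood at 0.377, 0.219 and 0.138 CPM in shCtrl total RNA and 5.46, 5.19 and 6.43 CPM in shPRRC2B total RNA, a log2 change of 4.42 (SE 0.42, adjusted p = 8.27e-07, edgeR's quasi-likelihood test). Its counts summed to 18 and 409. Around PAX7, 11 of 17 genes tested within 1000 kb were higher in shPRRC2B cells and none lower, with a median log2 change of 0.79, and the largest neighbouring value was 2.76. FOXC2, a forkhead gene of lymphatic vessels and mesenchyme, stood at 0.755, 0.986 and 0.691 CPM and 5.51, 4.61 and 5.33 CPM (log2 2.64, SE 0.41, adjusted p = 0.000115). Within 1000 kb of FOXC2, 6 of 17 genes were higher, among them its neighbour FOXF1 (0.66, SE 0.16). Beside these counts at PAX7 and FOXC2, 14.9% of all genes tested were higher and 14.1% lower.

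FOXO4, a FOXO factor under the control of insulin signalling (chrX:71095851-71103532), had the widest change among the abundant members. It stood at 13.5, 16.4 and 15.2 CPM in shCtrl total RNA and 130, 127 and 128 CPM in shPRRC2B total RNA, a log2 change of 3.09 (SE 0.14, adjusted p = 1.93e-10, edgeR's quasi-likelihood test). The lines were far apart. Of 20 genes tested within 1000 kb, 2 were higher and 1 was lower, against 14.9% and 14.1% of all genes tested. The log2 changes of these neighbours lay between -0.77 and 0.66. FOXO1, FOXO3 and FOXO6, its paralogs, had log2 changes of 0.14, -0.04 and -0.19, none of them called.

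The promoters of PAX7 and FOXO4 are shown because PAX7 rose from near silence and FOXO4 at a high level, and the table used here holds their promoters. The sequences are those of RefSeq on GRCh38.p14, 250 bases before to 50 after the start, on the plus strand, with CG dinucleotides in capitals.
PAX7, chr1:18630596-18630895: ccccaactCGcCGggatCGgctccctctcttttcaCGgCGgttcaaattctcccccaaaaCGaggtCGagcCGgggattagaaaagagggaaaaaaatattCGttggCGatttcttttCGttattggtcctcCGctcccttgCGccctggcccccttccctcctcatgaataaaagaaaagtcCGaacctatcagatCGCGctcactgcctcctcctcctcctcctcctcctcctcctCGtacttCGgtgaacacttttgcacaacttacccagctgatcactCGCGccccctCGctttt
FOXO4, chrX:71095601-71095900: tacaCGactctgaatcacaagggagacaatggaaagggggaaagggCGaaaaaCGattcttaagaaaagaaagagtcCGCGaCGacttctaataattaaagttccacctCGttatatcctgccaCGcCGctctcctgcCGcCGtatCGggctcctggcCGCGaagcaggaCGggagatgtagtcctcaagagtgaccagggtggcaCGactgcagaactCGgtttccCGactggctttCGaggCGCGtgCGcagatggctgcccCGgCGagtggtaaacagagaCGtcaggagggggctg
The PAX7 promoter held 21 CG dinucleotides and that of FOXO4 25, and 39.5% and 32.0% of the 35116 promoters of the same length held as many or more. The median was 14 CG over all promoters and 22 over the 103 promoters of the 64 members that matched. Neither promoter held TATAAA on either strand, which 11.5% of all promoters did, and PAX7 but not FOXO4 held CCAAT on one of the strands, as 34.6% of all promoters did. A match or its absence describes only the letters of this window.

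DLX3, a homeobox gene of epidermis, placenta and bone, stood at 0.34, 0.913 and 0.622 CPM in shCtrl total RNA and 2.75, 2.68 and 2.8 CPM in shPRRC2B total RNA (log2 2.12, SE 0.51, adjusted p = 0.004, edgeR's quasi-likelihood test), while its neighbour DLX4, 26.6 kb away, had a log2 change of -0.33 that was not called. The lines did not overlap for DLX3. GATA4 (chr8:11676959-11760002) rose as well, from 21.8, 25.3 and 22.7 CPM to 34, 32.8 and 33.5 CPM, with no overlap (log2 0.52, SE 0.13, adjusted p = 0.00583). Its change lay close to the limit of 0.5. Without any 1 of 8 libraries (shCtrl total replicates 1 and 3 and all 6 polysome libraries) it was between 0.47 and 0.50, below the limit, at an adjusted p of 0.0035 to 0.044.

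FOXQ1, an epithelial forkhead gene, had the lowest log2 change among the called members in total RNA. It stood at 2.57, 3.14 and 1.38 CPM in shCtrl and 0.607, 0.715 and 0.568 CPM in shPRRC2B cells, a log2 change of -1.91 (SE 0.50, adjusted p = 0.00737, edgeR's quasi-likelihood test), and without shCtrl total replicate 2 it was -1.65 with an adjusted p = 0.0504. FOXA3 stood at 1.7, 1.64 and 1.66 CPM and 0.84, 0.68 and 0.525 CPM (log2 -1.28, SE 0.32, adjusted p = 0.00543). FOXD3, a neural crest factor, stood at 15.4, 17.6 and 15.1 CPM and 7.75, 6.72 and 8.35 CPM (log2 -1.08, SE 0.19, adjusted p = 0.000349). The lines did not overlap for these 3 genes. Exons of FOXD3 overlap those of FOXD3-AS1 on the other strand, and counting without strand cannot tell the 2 apart.

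FOXN4 and IRX6 fell by 0.97 (SE 0.27, adjusted p = 0.00967) and 0.89 (SE 0.33, adjusted p = 0.0435, edgeR's quasi-likelihood test) on the log2 scale. Both calls depended on single libraries. FOXN4 lost its call without shCtrl total replicate 1 (adjusted p = 0.0631) or shPRRC2B total replicate 1 (adjusted p = 0.0554) or 2 (adjusted p = 0.0511). IRX6 lost it without any 1 of the 6 total libraries, with log2 changes of -0.81 to -0.96 and adjusted p of 0.0746 to 0.147.

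The third comparison was polysome RNA between the lines. It shares no library with the second, but the 2 are not independent. Both came from 1 fit, with scaling and an estimate of the spread over all 12 libraries, and from the same lines. Of the 91 members, 26 (28.6%) were higher and 20 (22%) lower in shPRRC2B polysomes, against 18.4% and 21.4% of all genes tested (edgeR's quasi-likelihood test). PAX1 and FOXA2, selected through the shPRRC2B libraries, are among the 26. Without shCtrl polysome replicate 2 or 3, 16 or 17 members were higher. In the PAX family 5 of 6 rose, PAX1 and PAX7 among them. In SOX 4 rose and 5 fell, and the 4 rises became 2 when replicate 2 or 3 of shCtrl polysomes or replicate 1 of shPRRC2B polysomes was left out, and 1 without shPRRC2B polysome replicate 2. Calls in both fractions were 15 members higher in both, 6 lower in both and 0 with opposite calls, against 6.55%, 6.36% and 2.36% of all genes tested, while 32 members and 46.5% of all genes were called in neither. Without shPRRC2B polysome replicate 2, 9 members were higher in both, as GATA3, GATA4, IRX4, PAX9, SOX8 and SOX18 lost a call, and without shCtrl polysome replicate 1, 10 were lower in both.

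Beside PAX1 and FOXA2, the largest rises in polysome RNA were at PAX7, FOXC2, FOXO4 and FOXE1, which also rose in total RNA. PAX7 held 0.281, 0 and 0.111 CPM in shCtrl polysomes and 2.41, 2.2 and 2.09 CPM in shPRRC2B polysomes (log2 3.95, SE 0.59, adjusted p = 4.29e-05, edgeR's quasi-likelihood test). FOXC2 held 0.468, 0 and 0 CPM and 2.49, 2.67 and 2.47 CPM, from 5 and 83 counts (log2 3.84, SE 0.62, adjusted p = 9.86e-05). FOXO4 held 5.43, 4.23 and 5.21 CPM and 28.6, 31.5 and 23 CPM (log2 2.48, SE 0.16, adjusted p = 8.96e-09). In each case all shPRRC2B libraries lay above all shCtrl libraries, which the selection by counts favoured for PAX7 and FOXC2. FOXE1, a thyroid forkhead gene, rose by 1.95 (SE 0.44, adjusted p = 0.00173) and by 1.39 in total RNA (SE 0.33, adjusted p = 0.00396). GATA4 rose by 0.51 (SE 0.14, adjusted p = 0.00857), from 14.1, 13.5 and 11.9 CPM to 17.1, 20.6 and 18.6 CPM, and without any 1 of the 6 polysome libraries the value was between 0.33 and 0.48, below the limit.

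The largest falls in polysome RNA included those of SOX9, TBX3, FOXP1 and SOX4, of which FOXP1 alone was also called lower in total RNA. SOX9 held 1.69, 2.17 and 0.333 CPM in shCtrl polysomes and 0.688, 0.0955 and 0.19 CPM in shPRRC2B polysomes (log2 -2.05, SE 0.59, adjusted p = 0.0093, edgeR's quasi-likelihood test), with 41 and 11 counts behind these values, and the lines overlapped. Its total RNA had a log2 change of -0.33, not called. FOXP1, a forkhead repressor of blood and neural lineages, held 9.65, 12.9 and 9.76 CPM and 3.61, 3.82 and 1.9 CPM (log2 -1.78, SE 0.23, adjusted p = 1.28e-05), with no overlap, and its total RNA fell less (log2 -0.71, SE 0.19, adjusted p = 0.00723).

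The fourth comparison was the TE change, tested as the interaction of line and fraction. Of the 91 members, 10 (11%) were TE-up and 16 (17.6%) TE-down in shPRRC2B cells, against 10.7% and 16.4% of all genes tested (edgeR's quasi-likelihood test), so these shares lay near the background. The median log2 TE change was -0.07 over the members and -0.03 over all genes. The count of TE-up members was 6 without shCtrl polysome replicate 2, shCtrl total replicate 1, shPRRC2B polysome replicate 1 or shPRRC2B total replicate 2, 5 without shPRRC2B total replicate 1 and 4 without shCtrl total replicate 2. The count of TE-down members was 10 without shPRRC2B total replicate 2. FOXD1 and FOXF2 were TE-up, and FOXN2, SOX4 and TBX3 TE-down, under every alternative that was run.

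Among the members, most TE calls went with a called change in polysome RNA. TE was computed from the same polysome and total libraries, so this link is partly built in. The split over all genes with a TE call is not given here, so it cannot be read as a trait of the members. Of the 16 TE-down members, 12 were lower in polysomes with no rise called in total RNA, 3 (DLX3, FOXO4 and FOXP4) were higher in total RNA with no fall called in polysomes, and FOXN3 was neither. Of the 10 TE-up members, 5 were higher in polysomes with no fall called in total RNA, 3 (among them FOXD3 and FOXQ1) were lower in total RNA with no rise called in polysomes, and DLX1 and MEIS3 were neither.

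**Figure D4:**
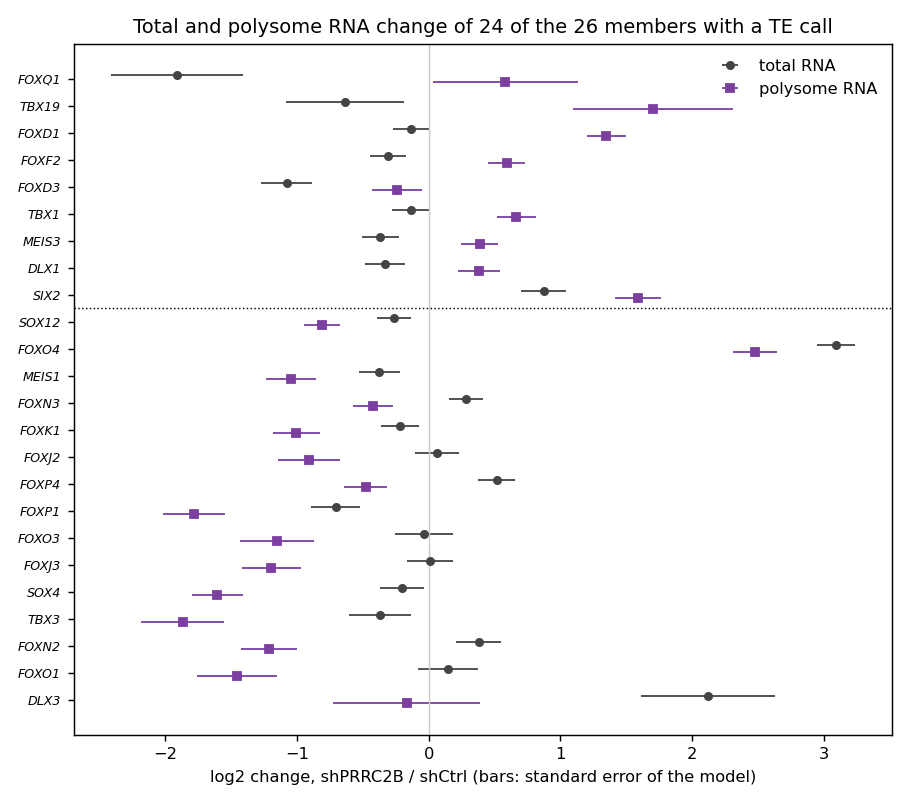
Log2 changes of total RNA (circles) and polysome RNA (squares) between the lines for 24 of the 26 members with a TE call, ordered by TE change, with bars for the standard error of the model. Above the dotted line are 9 TE-up and below it 15 TE-down members. At FOXO4 both values are positive with the polysome value the smaller, and at TBX3 and SOX4 the polysome value alone is far below 0.

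SOX4 (chr6:21593751-21598619) held 41.4, 28.3 and 27 CPM in shCtrl polysomes and 8.6, 13.3 and 9.99 CPM in shPRRC2B polysomes, against 231, 277 and 200 CPM and 210, 211 and 194 CPM in total RNA. The polysome values were apart while the total values overlapped. Its log2 TE change was -1.40 (SE 0.25, adjusted p = 0.000729, edgeR's quasi-likelihood test) and its polysome change -1.61 (SE 0.19, adjusted p = 5.3e-06). TBX3, a T-box repressor of limb, breast and heart development, held 13.3, 12.2 and 8.76 CPM and 5.33, 0.955 and 2.95 CPM in polysomes (log2 TE change -1.5, SE 0.40, adjusted p = 0.00976, and polysome change -1.87, SE 0.32, adjusted p = 0.000147). No shPRRC2B polysome library of TBX3 reached the lowest shCtrl one.

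Among forkhead genes, FOXN2 held 8.24, 7.27 and 8.76 CPM in shCtrl polysomes and 2.67, 3.53 and 4.28 CPM in shPRRC2B polysomes, without overlap, while its total RNA stood at 14.8, 13.6 and 17.8 and at 18.9, 21.5 and 19.5 CPM. Its log2 TE change was -1.59 (SE 0.27, adjusted p = 0.000485, edgeR's quasi-likelihood test). FOXO1, a target of insulin and AKT signalling, held 5.62, 7.38 and 5.32 CPM and 3.7, 1.62 and 1.24 CPM in polysomes (log2 TE change -1.60, SE 0.38, adjusted p = 0.00518). The polysome values of FOXO1 did not overlap either. FOXO4, in spite of its higher level in both fractions, was TE-down (log2 -0.62, SE 0.22, adjusted p = 0.0415) as its polysome RNA rose less than its total RNA. This call held under few alternatives. It was lost without any 1 of 8 libraries (shCtrl polysome replicates 1 and 3, shCtrl total replicates 1 and 3, shPRRC2B polysome replicate 3 and the 3 shPRRC2B total replicates), with log2 values of -0.54 to -0.64 and adjusted p of 0.0604 to 0.112. It was also lost under total counts (adjusted p = 0.0756), TMM within each fraction (adjusted p = 0.0627), the replicate block (adjusted p = 0.0540), the block within each line (adjusted p = 0.0706), a filter of at least 1 count (adjusted p = 0.0626) and the trend on length removed (adjusted p = 0.183).

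DLX3 had the lowest TE change among the called members (log2 -2.29, SE 0.76, adjusted p = 0.0322, edgeR's quasi-likelihood test). It rested on few counts, 30, 5 and 6 in shCtrl polysomes and 17, 9 and 14 in shPRRC2B polysomes, and on a single high library. Without shCtrl polysome replicate 1 the value was -1.15 with an adjusted p = 0.229. The call was also lost without shCtrl total replicate 1 or 3, shPRRC2B polysome replicate 2 or 3, or any 1 of the shPRRC2B total replicates, with log2 values of -1.97 to -2.39. With the replicate block the value was -2.19 (adjusted p = 0.0586) and with a block within each line -2.12 (adjusted p = 0.106).

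On the TE-up side, FOXD1, a forkhead gene of kidney stroma and retina (chr5:73444827-73448777), had the firmest change. Its polysome RNA stood at 53.3, 39.5 and 37.8 CPM in shCtrl and 103, 109 and 121 CPM in shPRRC2B cells. Its total RNA stood at 48.6, 53.5 and 45 and at 49.9, 43.1 and 41.4 CPM. Thus polysome values were far apart and total values overlapped, with a log2 TE change of 1.48 (SE 0.20, adjusted p = 7.81e-05, edgeR's quasi-likelihood test). FOXF2, a mesenchymal forkhead gene, held 87.7, 61.6 and 59.3 and 100, 106 and 109 CPM in polysomes (log2 TE change 0.90, SE 0.20, adjusted p = 0.003), with no overlap. Exons of FOXD1 overlap those of FOXD1-AS1 and those of FOXF2 overlap a microRNA gene, in both cases on the other strand.

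FOXQ1 and TBX19 had the highest TE changes among the called members, on few counts. FOXQ1 held 17, 8 and 9 counts in shCtrl polysomes and 38, 14 and 6 in shPRRC2B polysomes, which overlap, and its log2 TE change of 2.49 (SE 0.74, adjusted p = 0.0194, edgeR's quasi-likelihood test) stood beside its fall in total RNA. Without shPRRC2B polysome replicate 1 it was 1.55 (adjusted p = 0.108), and without shCtrl total replicate 2 it was 2.23 (adjusted p = 0.0672). TBX19, a pituitary T-box gene, held 11, 3 and 0 counts in shCtrl polysomes and 21, 13 and 17 in shPRRC2B polysomes, without overlap (log2 TE change 2.34, SE 0.76, adjusted p = 0.0289). Its call was lost without any 1 of 8 libraries (shCtrl polysome replicate 2, shCtrl total replicates 1 and 2, shPRRC2B polysome replicates 1 and 3 and the 3 shPRRC2B total replicates), with log2 values of 2.08 to 2.35 and adjusted p of 0.0587 to 0.0715.

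FOXD3 was TE-up by 0.84 (SE 0.27, adjusted p = 0.0279, edgeR's quasi-likelihood test), with 15.8, 25.6 and 25.8 CPM in shCtrl polysomes and 17.3, 22.2 and 17.3 CPM in shPRRC2B polysomes, which overlap, beside its lower total RNA. The call was lost without any 1 of 5 libraries (shCtrl total replicates 1 and 2, shPRRC2B total replicates 1 and 2 and shPRRC2B polysome replicate 2), with log2 values of 0.68 to 0.86, and with the trend on GC content removed (0.52, adjusted p = 0.179).

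GATA4 showed no TE call. Its log2 TE change was -0.01 (SE 0.20, adjusted p = 0.995, edgeR's quasi-likelihood test), with log2 changes of 0.52 in total and 0.51 in polysome RNA, and none of the 5 GATA genes was TE-up or TE-down. The PAX, IRX and LHX families, of 6, 4 and 5 genes, likewise had no TE call. This is no trait of these small families, since 65 of the 91 members had no call. Among all genes tested, 10.7% were TE-up and 16.4% TE-down.

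FOXN3, a forkhead repressor, is the only member in the study's list of mRNAs bound by PRRC2B, which came from crosslinking and immunoprecipitation. Its total RNA stood at 36, 39.5 and 40.6 CPM in shCtrl and 47.4, 51.8 and 42.1 CPM in shPRRC2B cells, and its polysome RNA at 10.8, 10.3 and 11.5 and at 7.48, 8.69 and 8.18 CPM. Neither fraction overlapped between the lines, and the log2 TE change was -0.71 (SE 0.20, adjusted p = 0.0146, edgeR's quasi-likelihood test). Without shPRRC2B total replicate 2 it was -0.64 (adjusted p = 0.0512), and with the trend on transcript length removed it was -0.02 (adjusted p = 0.975). The site is shown because it ties the only bound member to a position. The study's table places it in an intron of FOXN3, on the minus strand of chr14, and its hg38 sequence is given 5′ to 3′ in the sense of the gene, with the longest run of purines or of pyrimidines in capitals.
FOXN3 site, chr14:89875022-89875121: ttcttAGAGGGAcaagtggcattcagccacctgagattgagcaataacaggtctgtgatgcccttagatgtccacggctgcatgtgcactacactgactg
The site of 100 bases held 49 pyrimidines and 51 purines, and its longest run had 7 bases. In GENCODE 44 it lies 256 kb before the start of FOXN3 (chr14:89124871-89619149), within EFCAB11 and a long noncoding RNA and in no exon. The annotations thus differ on which gene holds the site. Exons of FOXN3 overlap those of other transcripts on both strands.

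The forkhead family split by subgroup. Of the 16 FOXJ, FOXK, FOXM, FOXN, FOXO and FOXP members, 10 were TE-down and 0 TE-up. Among all genes tested, 16.4% were TE-down and 10.7% TE-up. Their TE changes had a median of -0.88 on the log2 scale. These 10 were FOXJ2, FOXJ3, FOXK1, FOXN2, FOXN3, FOXO1, FOXO3, FOXO4, FOXP1 and FOXP4. Of the 17 other FOX members, 0 were TE-down and 5 TE-up, among them FOXD1, FOXD3, FOXF2 and FOXQ1, and their median was 0.36. These 5 became 3 when replicate 1 of shCtrl total RNA, of shPRRC2B polysomes or of shPRRC2B total RNA, or replicate 2 of the last, was left out, and 2 without shCtrl total replicate 2. The 2 subgroups also differed in length, with median transcripts of 5480.5 and 2841 nt, and 11 of the 16 against 1 of the 17 had 4000 nt or more. Among those 11, 9 were TE-down, against 36.6% of the protein-coding genes tested of that length. With the trend on length removed, FOXJ2, FOXK1, FOXN3, FOXO3, FOXO4, FOXP1 and FOXP4 lost their TE-down call and FOXD3 its TE-up call. The part of length in this split was not tested.

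TE calls went with transcript length over the members as a whole. TE-up members had a median transcript of 2481.5 nt (2021 to 3491) and TE-down members of 5480.5 nt (2602 to 11194), against 3087 nt for the 65 members without a call. The difference lay mostly in the 3′ UTR, with medians of 796 and 3370 nt. Of 23 members under 2500 nt, 0 were TE-down and 5 TE-up, of 38 between 2500 and 4000 nt 2 were TE-down and 5 TE-up, and of 30 members of 4000 nt or more 14 were TE-down and 0 TE-up. Among protein-coding genes tested, 5.10%, 16.9% and 36.6% of these classes were TE-down and 17.5%, 6.81% and 4.15% TE-up. The 5 TE-up members under 2500 nt became 3 when replicate 2 or 3 of shCtrl polysomes, 1 or 2 of shCtrl total RNA, or 1 or 3 of shPRRC2B total RNA was left out. The 5 of the middle class became 3 without shCtrl polysome replicate 2, shCtrl total replicate 1 or shPRRC2B polysome replicate 3, 2 when replicate 1 of shPRRC2B polysomes or replicate 1 or 2 of shPRRC2B total RNA was left out, and 1 without shCtrl total replicate 2.

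**Figure D5:**
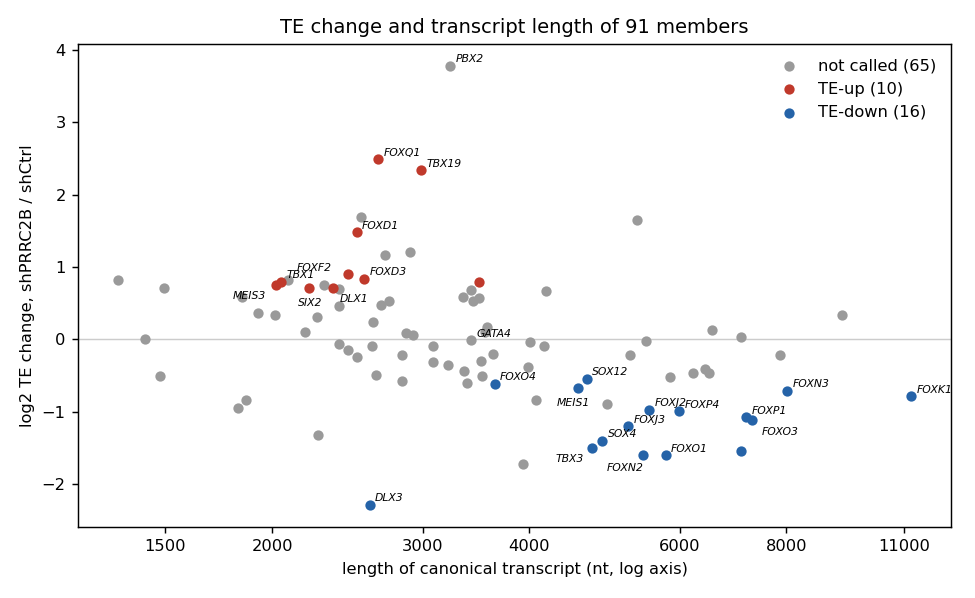
The log2 TE change of each of the 91 members on the vertical axis against the length of its canonical transcript on the horizontal log axis, with TE-up members in red and TE-down members in blue. TE-up members reach at most 3491 nt, and of the TE-down members DLX3 and FOXO4 alone are shorter than 4000 nt. PBX2, at the top, was not called, and its position rests on few counts.

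When each library was corrected for the dependence of its counts on length, 9 members were TE-up and 8 TE-down, against 9.92% and 10.7% of all genes tested. Of these, 7 TE-up and 7 TE-down members were shared with the fit without that correction. The 9 TE-down calls that were lost were those of FOXJ2, FOXK1, FOXN3, FOXO3, FOXO4, FOXP1, FOXP4, MEIS1 and SOX12, and SOX18 was gained. DLX1, FOXD3 and SIX2 lost their TE-up call, and PAX2 and TBX2 gained one. SOX4, TBX3, FOXN2, FOXO1, FOXJ3 and DLX3 were TE-down in both fits.

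Several members lie within 1000 kb of each other, and their calls were compared pair by pair. In the FOXQ1, FOXF2 and FOXC1 cluster on chromosome 6, FOXQ1 and FOXF2 were TE-up and FOXC1 was not called, and of the 3 only FOXQ1 fell in total RNA. SIX2 rose in total RNA while SIX3, 67.8 kb away, was not called. PAX9 rose and FOXA1 fell in total RNA on chromosome 14, where the call of FOXA1 was lost without any 1 of the 6 total libraries (log2 -0.62 to -0.68, adjusted p of 0.0950 to 0.133) and with the replicate block. DLX5 and DLX6 had no call in total RNA or TE. PAX1 and FOXA2 both rose in total RNA, as did FOXF1 and FOXC2, while FOXL1 beside the latter was not called. Opposite calls were found at PAX9 and FOXA1 alone. A gene called beside one not called is no test of a difference between them.

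Proteins that these factors bind were measured as a further list. Of 22 partner genes (EYA and DACH partners of SIX2 and its paralogs, LDB and LMO partners of LIM-homeodomain and GATA factors, ZFPM partners of GATA, PKNOX, TLE genes and PAXIP1), 21 were tested. In TE, 3 were up (ZFPM1, TLE2 and TLE5) and 3 down (EYA3, LDB1 and TLE3), in total RNA 4 rose and 0 fell, and in shCtrl cells 13 were lower and 5 higher in polysomes. Of all genes tested, 10.7% were TE-up and 16.4% TE-down, 14.9% higher and 14.1% lower in total RNA, and 39.8% lower and 32.5% higher in polysomes. With single libraries left out, 6 partners were TE-down without shPRRC2B polysome replicate 1, 2 rose in total RNA without replicate 1 or 3 of shCtrl or replicate 2 of shPRRC2B total RNA, and 3 were higher in polysomes of shCtrl cells without shCtrl polysome replicate 2. ZFPM1, the GATA cofactor also known as FOG1, had mean levels of 11.1 and 19.9 CPM in total RNA and 17.2 and 60.3 CPM in polysomes of shCtrl and shPRRC2B cells (log2 TE change 0.97, adjusted p = 0.0032, edgeR's quasi-likelihood test). Among TLE genes TLE5 was TE-up (1.00) and TLE3 TE-down (-0.90).

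Of 50 other developmental regulators outside these families, 44 were tested. In TE 11 were up and 4 down, in total RNA 7 rose and 10 fell, in polysome RNA 12 rose and 6 fell, and in shCtrl cells 20 were lower and 12 higher in polysomes, where the shares of all genes tested were those given above and, for polysome RNA, 18.4% higher and 21.4% lower. Without shCtrl total replicate 2, 7 were TE-up. The 4 TE-down calls became 2 without shCtrl total replicate 3 and 1 when replicate 1 or 2 of shCtrl total RNA, 2 or 3 of shPRRC2B polysomes, or any 1 of shPRRC2B total RNA was left out. The TE-up genes included HES4, HES6, HES7 and HEY2 (log2 1.62, 1.58, 1.46 and 0.68) and MESP1 (1.28), a mesoderm factor. HES1 and HEY1, of the same gene families, had log2 TE changes of 0.34 and -0.31, not called. In total RNA UNCX, a homeobox gene of the somite, fell by 3.38 on the log2 scale, from a mean of 33.3 to 3.18 CPM, and EN1, a homeobox gene of the midbrain and limb, rose by 2.04, from 2.98 to 12.2 CPM.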

How the data were processed

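The authors deposited 1 table of raw, unnormalized counts with gene names in rows and the 12 libraries in columns. Per the submitters' processing notes, reads were demultiplexed with bcl2fastq 2.19.0, trimmed with Trimmomatic 0.36, mapped to GRCh38 with HISAT2 2.1.0 and counted with featureCounts of Subread 2.0.1, on GENCODE 38 per the study's methods. No strand setting is given in the sources used here, so a gene and one that overlaps it on the other strand (29 of the 91 members) cannot be told apart. DESeq2 appears in these notes as a tool of the authors.

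The main test was that of edgeR 4.0.16 under R 4.3.3, and limma 3.58.1 and DESeq2 1.42.0 served as alternatives. The filter was filterByExpr (minimum count 10), and libraries were scaled by TMM together and fitted once over the 4 groups with glmQLFit and glmQLFTest. P-values were adjusted by Benjamini-Hochberg over all 18166 genes tested. Calls needed both an adjusted p below 0.05 and an absolute log2 change over 0.5. Errors are SDs over 3 libraries or standard errors of the model. Lengths are those of canonical transcripts of GENCODE 44, available for 86.8% of genes tested, and genes without a length got no length correction. Library totals limit low genes, for which counts and counting intervals are given.

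The members, gene lists and tests were chosen with earlier results of these data known. Genes were named by a rule: GATA4, the 5 largest rises and falls among called members with a mean of at least 1 CPM in each comparison, the highest member per kb of each family, those next to the limit of 100 counts, and members of the study's bound list. A further part, the most alike pair of proteins with opposite calls, was not applied, and a few genes that the rule or the lists hold are not reported here. Members named outside it, such as FOXO3, SIX2 and MEIS1, and genes of the lists were chosen after their values were seen. The alternatives were DESeq2, DESeq2's size factors, total counts or TMM within each fraction as scale, 2 other filters, limma on log2(CPM + 1), replicate blocks, the trend on length or GC content removed (lowess with span 0.3), no minimum log2 change, a limit of 500 counts for the members, and each library left out.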

Additional observations from a re-analysis of the deposited data

Results flagged for a closer look

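Named members whose difference between the lines was not the same in total and in polysome RNA, by the test of the interaction in edgeR's quasi-likelihood fit, are listed for a closer look. The log2 TE change was -2.29 for DLX3, -1.60 for FOXO1, -1.59 for FOXN2, -1.5 for TBX3 and -0.71 for FOXN3. It was 2.49 for FOXQ1, 2.34 for TBX19, 1.48 for FOXD1, 0.90 for FOXF2 and 0.84 for FOXD3. DLX3, FOXQ1 and TBX19 rest on few counts in polysomes.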

How the results depend on the processing

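Of 45 values of named members, 1085 values were had under the alternatives. Of these, 989 kept their direction and their side of the threshold, 86 kept their direction but were no longer past the threshold, and 10 changed sign, at 2 genes. DLX4 had a polysome-to-total log2 ratio of -0.011 under TMM within each fraction and -0.0054 under total counts. The TE change of GATA4, which was near 0 and never called, was 0.054 under TMM within each fraction, 0.057 with at least 10 counts in every library, 0.16 with the length trend removed, 0.16 with it and the replicate block, 0.040 under total counts, and 0.0057, 0.031 and 0.0045 without shCtrl polysome replicate 1, shCtrl total replicate 1 and shCtrl total replicate 3, within a range of -0.14 to 0.031 over all single libraries left out.

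With each library left out, TE-up members numbered 4 to 12, TE-down 10 to 18, members higher in total RNA 15 to 19 and lower 8 to 15, higher in polysomes 16 to 27 and lower 19 to 28, and higher in polysomes than in total RNA of shCtrl cells 7 to 14 and lower 54 to 61. TE-down members numbered 8 with the length trend removed and 5 with the length trend removed together with the replicate block. Members higher in total RNA numbered 11 among the 68 with at least 10 counts in every library, a filter that removes genes near 0 in 1 line. This share lay near the 16.1% of all 12381 genes tested under the same filter. Members higher in polysomes of shCtrl cells numbered 3 under TMM within each fraction, 3 under total counts and 7 when every gene with at least 1 count was kept; the cause of the last was not tested.

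Deviations of samples with the same replicate number correlated between -0.11 and 0.10. Such values cannot exclude that samples of the same number shared a culture, since the spread between polysome libraries can hide it. With the replicate block, TE-up and TE-down members numbered 10 and 13, those higher and lower in total RNA 19 and 13, in polysomes 26 and 20, and in polysomes against total RNA 11 and 57. With a block for cultures within each line, TE counts were 9 and 12. The replicate block ended the TE calls of DLX3 and FOXO4 (log2 -2.19 and -0.63), and the block within each line also that of FOXQ1 (2.21, adjusted p = 0.0595). Low counts limit PAX1, FOXA2, PAX7, FOXC2, DLX3, FOXQ1, TBX19 and PBX2.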
